A study of Mus musculus with 20 samples.

Results

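The genes described here build and load the MHC class I complex. They were chosen by name, as 9 listed genes, and 6 of the 9 were analysed among the 25246 genes with a row in the deposited tables. These were B2m, the heavy chain genes H2-D1, H2-Q5 and H2-T23, and the peptide loading genes Tap1 and Tapbp, each with its own row in all 20 libraries. H2-K1, H2-Q7 and H2-T22 were not analysed here. No row joined any of the 9 with another gene. Transcripts of single thymic precursors of intraepithelial lymphocytes (IELPs), sorted as CD4-CD8-TCRb+ cells, were counted by CEL-Seq2, a single-cell RNA sequencing method that tags transcript ends with molecular barcodes. Cells came from 4 populations ordered by CD122, the IL-2 receptor beta chain, and by T-bet, read from a ZsGreen reporter (TBGR). The least mature, CD122-T-bet-, was followed by CD122+T-bet- cells and then by CD122+ cells of intermediate (T-bet int) or high (T-bet high) reporter signal.

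A TBGR mouse of 4 weeks, wild type for C-myc, gave 8 libraries, 2 for each population. A TBGR C-mycfl/fl mouse of 2 weeks, whose floxed C-myc alleles were intact, gave 8 libraries, of which 4 held both T-bet- populations and 4 held T-bet int together with T-bet high cells. A TBGR C-mycD/DCd4 mouse of 2 weeks, which carried the same floxed alleles with a Cd4-Cre transgene that deletes C-myc in T cells, gave 4 libraries, 2 for each T-bet- population. All 3 mice carried the reporter and none was treated. The series description names a single mouse of each genotype, whereas the study's text speaks of mice, and no label ties a library to an animal, so each genotype was treated as 1 mouse. Genotypes were thus not replicated and no test was run. The T-bet- populations came from all 3 mice and the other populations from 2, but genotype, age and library set cannot be told apart between the TBGR mouse and the others. The 2 mice with floxed C-myc were both of 2 weeks but shared no library. Between them genotype, animal and library set cannot be told apart either. Cre driven by Cd4 acts from the double positive stage of thymocytes, so earlier cells keep their alleles. The study's methods gate on NK1.1- cells whereas its series description names NK1.1+ cells.

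Of 1920 wells with a sorted cell, 1413 cells held at least 2000 transcripts and were kept. These were 678 cells of the TBGR mouse, 470 of TBGR C-mycfl/fl and 265 of TBGR C-mycD/DCd4. Median transcripts per cell were 4238.5 to 7073.5 over the 10 mouse-by-population groups. The thinnest sets were CD122+T-bet- cells of TBGR C-mycfl/fl library 4, with 22 cells and a median of 3298 transcripts, and TBGR T-bet high library 2, with 55 cells and a median of 3805. Libraries reused well barcodes, and 90 of 190 library pairs shared all 96, yet 0 cells had identical profiles. Levels below are transcripts per 1000000 transcripts of the group or library (CPM), with mitochondrial and spike-in transcripts left out of the total. Il2rb, which encodes CD122, was at 2.61 to 9.88 CPM in the CD122- groups and at 222 to 515 CPM in the CD122+ groups. Tbx21, which encodes T-bet, was at 0 to 6.60 CPM in the T-bet- groups, at 18.8 and 48.0 CPM in T-bet int and at 60.0 and 165 CPM in T-bet high cells. These levels followed the sort. Klrb1c, which encodes NK1.1, was at 0 to 10.9 CPM in T-bet- groups, at 9.41 and 39.5 CPM in T-bet int, and at 81.5 and 563 CPM in T-bet high (TBGR C-mycfl/fl and TBGR mouse in turn).

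The deleted gene was checked first. Myc stood at 16.7 and 30.0 CPM in the 2 CD122-T-bet- libraries of TBGR C-mycD/DCd4, and at 63.0, 14.0, 62.3 and 24.4 CPM in the 4 of TBGR C-mycfl/fl. In CD122+T-bet- cells it stood at 44.5 and 9.96 CPM against 73.8, 125, 135 and 10.6 CPM. The group levels were lower in the library set labelled TBGR C-mycD/DCd4, with 25.1 against 99.0 CPM and 18 against 75 transcripts in CD122+T-bet- cells, but the libraries overlapped in both populations. A transcript end that lies outside the deleted part would still be counted, so these counts do not measure the deletion.

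An MHC class I molecule is a heavy chain held together with the light chain beta 2 microglobulin and a short peptide, and it shows the cell's own peptides to CD8 T cells and to receptors of natural killer cells. The peptide is pumped into the endoplasmic reticulum by the transporter TAP, of which Tap1 encodes a subunit, and tapasin, encoded by Tapbp, bridges TAP and the empty heavy chain. Genes of this system share interferon-responsive control, with NLRC5 as a transactivator, and class I levels on thymocytes are known to be low at the double positive stage and higher on mature cells. CD8αα intraepithelial lymphocytes, the progeny of IELPs, are known for their dependence on beta 2 microglobulin.

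In the GENCODE vM21 annotation of GRCm38, B2m lies on chromosome 2 at chr2:122147686-122153083, plus strand, outside the MHC. The other 5 genes lie in or beside the MHC on chromosome 17, with Tapbp at chr17:33915899-33929292, Tap1 at chr17:34187553-34197225, H2-D1 at chr17:35262730-35267499 and H2-Q5 at chr17:35394126-35397800 on the plus strand, and H2-T23 at chr17:36029773-36032855 on the minus strand. H2-Q5 is annotated as a polymorphic pseudogene. CEL-Seq2 reads come from transcript ends, so the last 500 bases of each gene's longest transcript were compared with all other annotated transcripts in 451 windows of 50 bases. B2m, Tap1 and Tapbp shared 0 windows. H2-Q5 shared 141 windows (31.3%), with H2-Q10, H2-Q7 and H2-K1, and its counts are therefore uncertain in part. H2-D1 shared 43 windows (9.53%) and H2-T23 108 (23.9%), with 80 and 74 other genes.

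Promoters of 5 of the 6 genes were found in RefSeq (GRCm38.p6), each as the 250 bases before and 50 bases from the transcription start. The 4 shown here are the light chain, a heavy chain that was higher at every TBGR step as B2m was, a heavy chain that was not higher at the first 2 of these steps, and the transporter, printed on the strand of the gene. Capitals mark matches on either strand to 7 motifs that were searched. The matched motifs were the interferon-stimulated response element core GAAANNGAA, the CCAAT box CCAAT, the cyclic AMP response motif TGACG and an NF-kB site, GGGATTCCC. The windows are chr2:122147437-122147736 (B2m, plus), chr17:35262844-35263143 (H2-D1, plus), chr17:36032652-36032951 (H2-T23, minus) and chr17:34187306-34187605 (Tap1, plus).
B2m: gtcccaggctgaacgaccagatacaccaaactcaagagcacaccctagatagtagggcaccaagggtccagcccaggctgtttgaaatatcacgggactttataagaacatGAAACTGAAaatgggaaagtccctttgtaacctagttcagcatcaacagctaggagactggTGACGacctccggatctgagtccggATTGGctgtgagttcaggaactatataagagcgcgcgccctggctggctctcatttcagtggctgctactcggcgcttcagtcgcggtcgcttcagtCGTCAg
H2-D1: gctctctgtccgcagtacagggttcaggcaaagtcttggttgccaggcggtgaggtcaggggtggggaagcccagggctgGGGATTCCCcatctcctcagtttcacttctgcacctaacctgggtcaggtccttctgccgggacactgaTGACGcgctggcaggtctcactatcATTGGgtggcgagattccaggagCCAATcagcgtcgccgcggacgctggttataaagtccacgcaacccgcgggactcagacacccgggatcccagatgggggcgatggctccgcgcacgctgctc
H2-T23: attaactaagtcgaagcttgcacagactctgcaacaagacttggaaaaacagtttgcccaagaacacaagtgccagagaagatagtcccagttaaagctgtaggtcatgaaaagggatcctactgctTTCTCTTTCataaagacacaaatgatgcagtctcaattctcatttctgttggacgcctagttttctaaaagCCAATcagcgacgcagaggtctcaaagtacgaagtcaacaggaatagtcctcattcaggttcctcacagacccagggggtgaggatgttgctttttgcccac
Tap1: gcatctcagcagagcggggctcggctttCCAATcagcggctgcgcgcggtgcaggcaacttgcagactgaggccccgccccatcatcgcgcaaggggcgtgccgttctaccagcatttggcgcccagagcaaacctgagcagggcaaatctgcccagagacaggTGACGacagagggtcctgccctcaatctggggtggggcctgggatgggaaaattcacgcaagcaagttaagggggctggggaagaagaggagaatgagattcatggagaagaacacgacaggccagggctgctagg

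The interferon element core, in the exact form GAAANNGAA, was found in the B2m window, at -139 from the start. It was also found on the opposite strand in the H2-T23 window, at -123, and occurs in 8.57% of 27025 promoters of the same length. Other forms of the element were not searched for. The H2-D1 window holds tttcacttc, like letters in another order that this form does not cover, so an interferon element in H2-D1 was not excluded. The NF-kB site was found in the H2-D1 window alone among the 5, at -170, and occurs in 0.370% of promoters. CCAAT boxes were found in all 5 windows, against 37.9% of promoters, and lay near -53 on one strand or the other in B2m, H2-D1 and H2-T23. The motif TGACG, held by 21.0% of promoters, was found in B2m, H2-D1 and Tap1. The window of Tapbp, not printed, held only CCAAT boxes, at -248 and -165 on the opposite strand. No window held the STAT site TTCNNNGAA (8.47% of promoters), the E box CACGTG (7.24%) or the T-box motif AGGTGTGA (1.27%). No 2 marked matches overlapped. A match is a run of letters and not a measured binding site.

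B2m, the light chain that all the heavy chains here pair with, was the most abundant of the 6 in every group. Its share of transcripts over the whole group was higher at each step of the sort order in all 3 mice. Per spike-in transcript, in the TBGR mouse, it was not higher at T-bet high (log2 ratio -0.23). In the TBGR mouse the 2 libraries of CD122-T-bet- cells stood at 1170.0 and 946 CPM, those of CD122+T-bet- at 1998 and 1860, those of T-bet int at 3086 and 2659, and those of T-bet high at 4071 and 4279. No library of one population overlapped with the next. The steps were 1.83-fold (95% counting interval 1.70 to 1.97), 1.49-fold (1.42 to 1.56) and 1.44-fold (1.37 to 1.51). These intervals cover the sampling of transcripts alone, not the spread between mice.

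For TBGR C-mycfl/fl, B2m stood at 368, 679, 694 and 250.02 CPM in the 4 libraries of CD122-T-bet- cells and at 927, 1179.9, 1241 and 658 CPM in the CD122+T-bet- cells those libraries also held. It stood at 1467, 1416, 1605 and 1145 CPM in T-bet int cells and at 2187, 2095, 2190.0 and 1652 CPM in T-bet high cells of the other 4 libraries. Within every library the more mature population was higher, by 2.05-fold (1.82 to 2.31) across the CD122 step and by 1.46-fold (1.35 to 1.58) from T-bet int to T-bet high. Library 4 of the T-bet- populations was the lowest on both sides of its step. CD122+T-bet- and T-bet int cells came from different libraries, and their B2m levels overlapped.

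With C-myc deleted (TBGR C-mycD/DCd4), B2m stood at 575 and 656 CPM in the 2 CD122-T-bet- libraries and at 2287 and 2233 CPM in the 2 CD122+T-bet- libraries, 3.61-fold higher (3.26 to 4.01). CD122+T-bet- cells of this mouse lay above the 4 libraries of the same population in TBGR C-mycfl/fl, by 2.13-fold (1.95 to 2.32), and above all 4 of its T-bet high libraries. CD122-T-bet- cells of TBGR C-mycD/DCd4 and TBGR C-mycfl/fl overlapped and differed by 1.21-fold. The CD122+T-bet- libraries of the TBGR mouse, at 1998 and 1860 CPM, were nearer to TBGR C-mycD/DCd4 than to TBGR C-mycfl/fl.

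**Figure D1:**
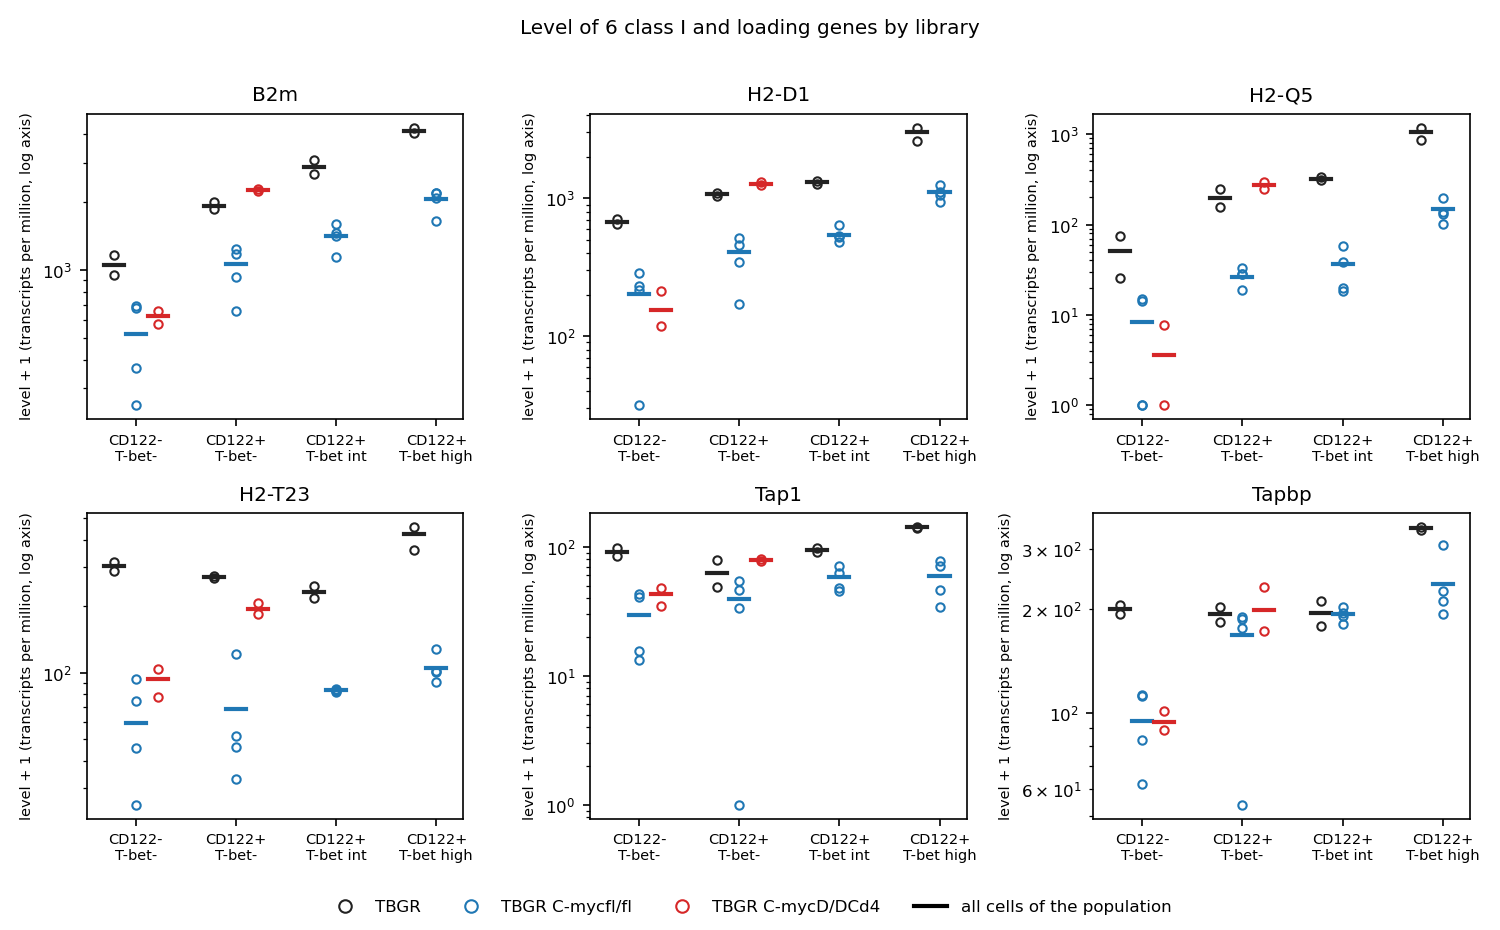
Levels of the 6 class I and peptide loading genes in CPM, on a log axis, by mouse and sorted population. Each point is 1 population in 1 library and each bar is the level over all cells of the group. By group level, B2m, H2-D1 and H2-Q5 climb along the sort order in each mouse. H2-T23 and Tap1 do so in both C-myc mice but not at each step of the TBGR mouse.

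H2-D1, which encodes the classical heavy chain H-2D, was higher at every step at which the light chain was, and as a share of transcripts its largest TBGR step was at T-bet high. Scaled to spike-ins the largest was the CD122 step, with log2 ratios of 1.03, 0.47 and 0.47 in sort order. In TBGR cells it stood at 703 and 648 CPM in CD122-T-bet-, 1041 and 1099.9 in CD122+T-bet-, 1344 and 1260.2 in T-bet int and 3244 and 2617 CPM in T-bet high libraries. Each population lay apart from the next. The steps were 1.58-fold (1.44 to 1.74), 1.22-fold (1.14 to 1.31) and 2.33-fold (2.19 to 2.49).

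H2-D1 in TBGR C-mycfl/fl cells was lower at every stage than in the TBGR mouse, at 213, 284, 231 and 30.5 CPM in CD122-T-bet- and 346, 454, 514 and 170 CPM in CD122+T-bet- libraries. It stood at 485, 536, 635 and 525 CPM in T-bet int and at 1249, 1118, 1062 and 943 CPM in T-bet high libraries. Across the CD122 step it was higher in all 4 libraries, by 2.03-fold (1.67 to 2.47). From T-bet int to high it was higher in all 4 libraries, by 2.06-fold (1.84 to 2.32). CD122+T-bet- and T-bet int cells came from different libraries, and their H2-D1 levels overlapped. Cells of TBGR C-mycD/DCd4 held 211 and 118 CPM in the CD122-T-bet- libraries and 1318 and 1240 CPM in the CD122+T-bet- libraries, 8.27-fold higher (6.82 to 10.1). Both of the latter libraries lay in the range of the T-bet high libraries of TBGR C-mycfl/fl or above it. The group stood 3.14-fold (2.76 to 3.59) above the same population of TBGR C-mycfl/fl. That population of the TBGR mouse, at 1041 and 1099.9 CPM, was nearer to TBGR C-mycD/DCd4.

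H2-Q5, a heavy chain gene of the nonclassical Q region, had the widest steps along the sort order. TBGR libraries stood at 24.8 and 74.5 CPM in CD122-T-bet-, 153 and 247 in CD122+T-bet-, 333 and 308 in T-bet int and 1173 and 852 CPM in T-bet high cells. The steps were 3.95-fold (2.91 to 5.46), 1.63-fold (1.40 to 1.90) and 3.32-fold (2.94 to 3.75). The middle step rested on CD122+T-bet- library 1, without which its log2 ratio was 0.38 instead of 0.70. Its counts in TBGR C-mycfl/fl cells were low, with 6, 19, 30 and 102 transcripts in the 4 populations in sort order, or 7.41, 25.1, 35.3 and 146 CPM. T-bet high cells were 4.13-fold (2.73 to 6.44) above T-bet int and higher in all 4 libraries. The deletion mouse, TBGR C-mycD/DCd4, gave 2 transcripts before the CD122 step and 195 after it, a level of 272 CPM and a ratio of 104 with a counting interval of 28.4 to 866. Those 2 transcripts, 0.0156 per cell, were near the 0.0094 per barcode found in barcodes without a cell. The size of this ratio is therefore uncertain. The libraries of CD122+T-bet- cells stood at 245 and 294 CPM in TBGR C-mycD/DCd4 and at 27.7, 17.8, 27.1 and 31.8 CPM in TBGR C-mycfl/fl, 10.8-fold apart (6.76 to 18.4). Those of the TBGR mouse, at 153 and 247 CPM, overlapped with the deletion mouse. Part of the end of H2-Q5 matches other heavy chain genes. The authors kept unique hits alone, so reads from the shared part may be missing from these values. Whether other reads were misplaced was not tested.

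H2-T23, which encodes the nonclassical molecule Qa-1, a ligand of the natural killer receptor CD94/NKG2A, did not climb along the sort order in the TBGR mouse until T-bet high. Its libraries stood at 289 and 316 CPM in CD122-T-bet-, 268 and 272 in CD122+T-bet-, 217 and 245 in T-bet int and 456 and 359.8 CPM in T-bet high cells. The first steps were 0.892-fold (0.766 to 1.04) and 0.853-fold (0.732 to 0.994), with the libraries apart but less than 1.5-fold, the former turning to a log2 ratio of 0.21 when scaled to spike-ins, and the last was 1.84-fold (1.56 to 2.17). In TBGR C-mycfl/fl cells the group levels were 58.0, 67.3, 82.3 and 104 CPM in sort order. T-bet high was above T-bet int in all 4 libraries, by 1.27-fold (0.901 to 1.79), an interval that holds equality. In TBGR C-mycD/DCd4 cells H2-T23 stood at 76.9 and 103 CPM in CD122-T-bet- and at 206 and 184 CPM in CD122+T-bet- libraries, 2.09-fold higher (1.56 to 2.82). The same population of TBGR C-mycfl/fl stood at 50.7, 120, 45.1 and 31.8 CPM, below both libraries, by 2.88-fold (2.08 to 4.05).

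**Figure D2:**
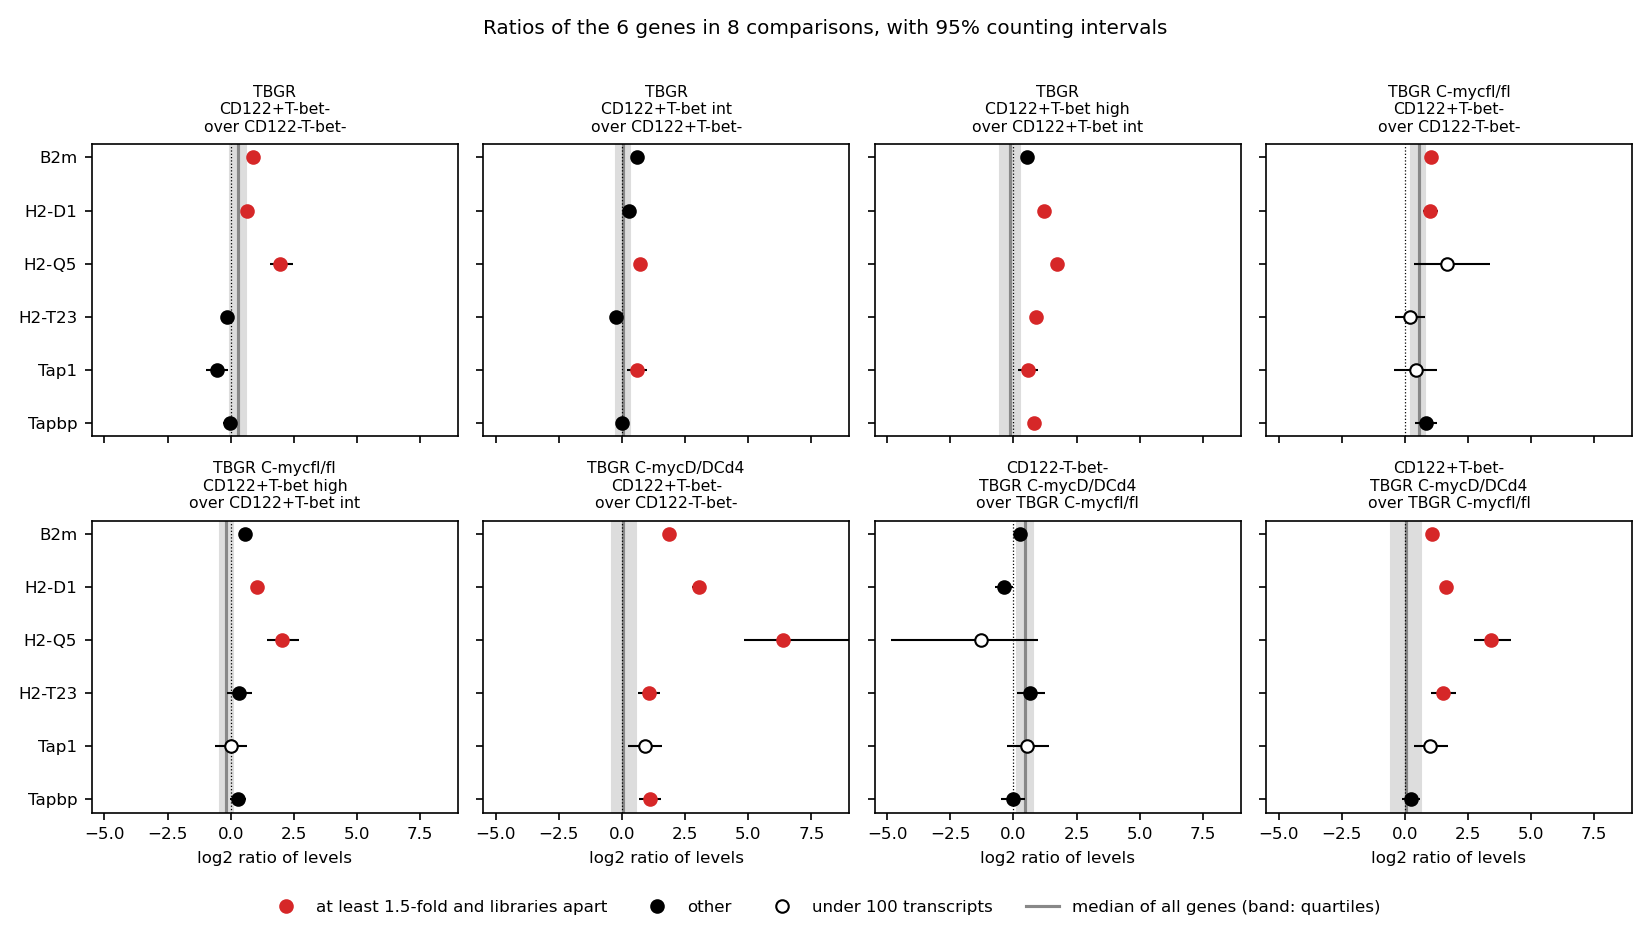
Log2 ratios of the 6 genes in the 8 comparisons, with 95% counting intervals as bars and the median of all genes taken in the comparison as a line. The ratios of H2-D1 and H2-Q5 stand farthest from that median at the T-bet high step and in TBGR C-mycD/DCd4 CD122+T-bet- cells, and the interval of H2-Q5 in the CD122 step of that mouse runs past the end of the axis.

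Tap1, the transporter subunit, stood at 97.2 and 84.6 CPM in TBGR CD122-T-bet-, 47.7 and 77.8 in CD122+T-bet-, 90.9 and 96.4 in T-bet int and 140.0 and 141 CPM in T-bet high libraries. CD122+T-bet- cells were thus below both neighbours, 0.682-fold (0.504 to 0.924) of the CD122-T-bet- level, just short of 1.5-fold. The later steps were 1.51-fold (1.14 to 2.01) and 1.5-fold (1.14 to 1.97), both at the edge of the limit, and neither held it when 1 library was left out (log2 ratio 0.26 without CD122+T-bet- library 1 for the former, 0.54 without T-bet int library 1 for the latter). Scaled to spike-ins the latter turned to a log2 ratio of -0.16. Group levels of Tap1 in TBGR C-mycfl/fl were 28.4, 38.3, 57.6 and 58.6 CPM in sort order, on 52 and 90 transcripts in the pairs compared. Its TBGR C-mycD/DCd4 libraries stood at 33.5 and 47.2 CPM in CD122-T-bet- and 76.2 and 79.7 CPM in CD122+T-bet-, and those of CD122+T-bet- cells lay above the 32.3, 53.4, 45.1 and 0 CPM of TBGR C-mycfl/fl. The ratios were 1.87 (1.19 to 2.98) and 2.04 (1.28 to 3.32), on 88 and 85 transcripts, under the minimum of 100 that was set for a comparison.

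Tapbp was level over the first 3 TBGR populations and higher in T-bet high. Its libraries stood at 205 and 193 CPM, then 203 and 183, then 177 and 210.3, then 346 and 338 CPM, and the last step was 1.78-fold (1.48 to 2.13). In TBGR C-mycfl/fl cells it stood at 82.4, 112, 111 and 61.0 CPM in CD122-T-bet- and at 189, 187, 176 and 53.0 CPM in CD122+T-bet- libraries, 1.79-fold higher (1.33 to 2.41) in sum but lower in library 4. T-bet int cells stood at 202, 194, 180.4 and 190 CPM and T-bet high cells at 307, 211, 193 and 225 CPM, 1.22-fold higher (0.979 to 1.53). The TBGR C-mycD/DCd4 libraries stood at 100.4 and 87.9 CPM and then at 232 and 172 CPM, 2.14-fold higher (1.60 to 2.88) across the CD122 step. Unlike the light and heavy chains, Tapbp overlapped between the 2 C-myc mice in CD122+T-bet- cells, with a ratio of 1.18 (0.924 to 1.51).

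A gene was called here where it held at least 100 transcripts in both groups together, differed by at least 1.5-fold and had no overlap of libraries, or, where the 2 populations shared libraries, the same sign in each. By this rule 3 of the 6 genes were higher across the CD122 step of the TBGR mouse, B2m, H2-D1 and H2-Q5, where 24.7% of 4057 genes were higher and 5.50% lower. From CD122+T-bet- to T-bet int, 2 of 6 were higher, H2-Q5 and Tap1, against 9.06% of 4637 genes higher and 8.86% lower. B2m lay just under the limit there and passed it in 5 alternatives, at log2 ratios of 0.60 to 0.76, whereas Tap1 missed it in 4. From T-bet int to T-bet high, 5 of 6 were higher, all but B2m, against 11.5% of 3524 genes higher and 22.3% lower. The median log2 ratios of the 6 were 0.31, 0.43 and 0.85, and those of all genes 0.28, 0.05 and -0.13. At the CD122 step the median of the 6 was thus near that of all genes, and at T-bet high it stood above it.

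Across the CD122 step of TBGR C-mycfl/fl, 3 of the 6 genes had enough transcripts and 2 of these were higher, B2m and H2-D1, where 33.1% of 1771 genes were higher and 4.80% lower. From T-bet int to high, 5 had enough and 2 were higher, H2-D1 and H2-Q5, against 4.64% of 2027 genes higher and 11.1% lower. Across the CD122 step of TBGR C-mycD/DCd4, 5 of 5 were higher, all but Tap1, which was not taken, against 23.2% of 2106 genes higher and 16.0% lower. Between the C-myc mice, 0 of the 4 taken in CD122-T-bet- cells were called, where 26.4% of 1793 genes were higher in TBGR C-mycD/DCd4 and 1.39% lower. In CD122+T-bet- cells 4 of 5 were higher in TBGR C-mycD/DCd4, B2m, H2-D1, H2-Q5 and H2-T23, against 23.4% of 2113 genes higher and 11.9% lower. Their medians in these 5 comparisons were 1.02, 0.55, 1.85, 0.13 and 1.52, against 0.55, -0.18, 0.05, 0.45 and 0.06 for all genes. None of the 6 was called lower in any of the 8 comparisons with all libraries and this scaling. Tap1 passed as lower across the TBGR CD122 step in 4 alternatives, with the median of all genes set to 0 (-0.83), without CD122+T-bet- library 2 (-0.92), without CD122-T-bet- library 2 (-0.66) and in one given below. Between the C-myc mice in CD122-T-bet- cells, H2-D1 passed as lower (-0.66) without TBGR C-mycfl/fl library 4, and H2-T23 as higher (1.24) after thinning. The 2 comparisons that involve TBGR C-mycD/DCd4 CD122+T-bet- cells share those libraries.

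These are shares of each library. Spike-in transcripts were counted in the TBGR mouse alone, and scaling to them moved the log2 ratios of every gene by 0.37 at the CD122 step, by 0.18 at the step to T-bet int and by -0.75 at the step to T-bet high. On that scale, at the last step, B2m stood at -0.23 and Tap1 at -0.16, so their direction turned, Tapbp at 0.08, H2-T23 at 0.13, H2-D1 at 0.47 and H2-Q5 at 0.98. T-bet high cells held fewer transcripts than T-bet int cells, with medians of 4309 and 6348 per cell. On the spike-in scale H2-Q5 alone passed the rule at this step.

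The 6 genes together made up 0.237%, 0.372%, 0.502% and 0.915% of all transcripts in the 4 TBGR populations in sort order. The shares were 0.0905%, 0.176%, 0.232% and 0.373% in TBGR C-mycfl/fl, and 0.101% and 0.427% in the 2 T-bet- populations of TBGR C-mycD/DCd4. The share in TBGR C-mycD/DCd4 CD122+T-bet- cells ran from 0.420% to 0.436% over libraries, above the highest T-bet high library of TBGR C-mycfl/fl, at 0.411%. It was nearer to the same population of the TBGR mouse, at 0.372%, than to that of TBGR C-mycfl/fl, at 0.176%. The 2-week and 4-week mice without C-myc deletion differed in level in each population, and age, C-myc genotype and library set cannot be told apart there.

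The balance of H2-D1 and B2m was not constant. Transcripts of H2-D1 per transcript of B2m were 0.639, 0.553, 0.453 and 0.733 over the TBGR populations. H2-D1 thus fell relative to B2m up to T-bet int and was higher again at T-bet high. The CD122-T-bet- libraries, at 0.601 and 0.685, overlapped with T-bet high. H2-K1 was not analysed, so the balance of all chains was not measured. The T-bet int libraries stood at 0.435 and 0.474, below both T-bet high libraries at 0.612 and 0.797. In TBGR C-mycfl/fl the ratio was 0.387, 0.382 and 0.380 in the first 3 populations and 0.537 in T-bet high. TBGR C-mycD/DCd4 went from 0.247 in CD122-T-bet- cells, with libraries at 0.180 and 0.366, to 0.565 in CD122+T-bet- cells, with libraries at 0.555 and 0.576. All 4 libraries of TBGR C-mycfl/fl CD122+T-bet- cells, at 0.258 to 0.415, lay below these. The TBGR libraries of that population, at 0.521 and 0.591, spanned them. H2-Q5 gained on H2-D1 along the TBGR sort order, from 7.40 to 18.5, 24.6 and 35.1 transcripts per 100 of H2-D1. It stood at 3.70, 6.19, 6.55 and 13.1 per 100 in TBGR C-mycfl/fl and at 1.69 and 21.4 per 100 in TBGR C-mycD/DCd4.

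**Figure D3:**
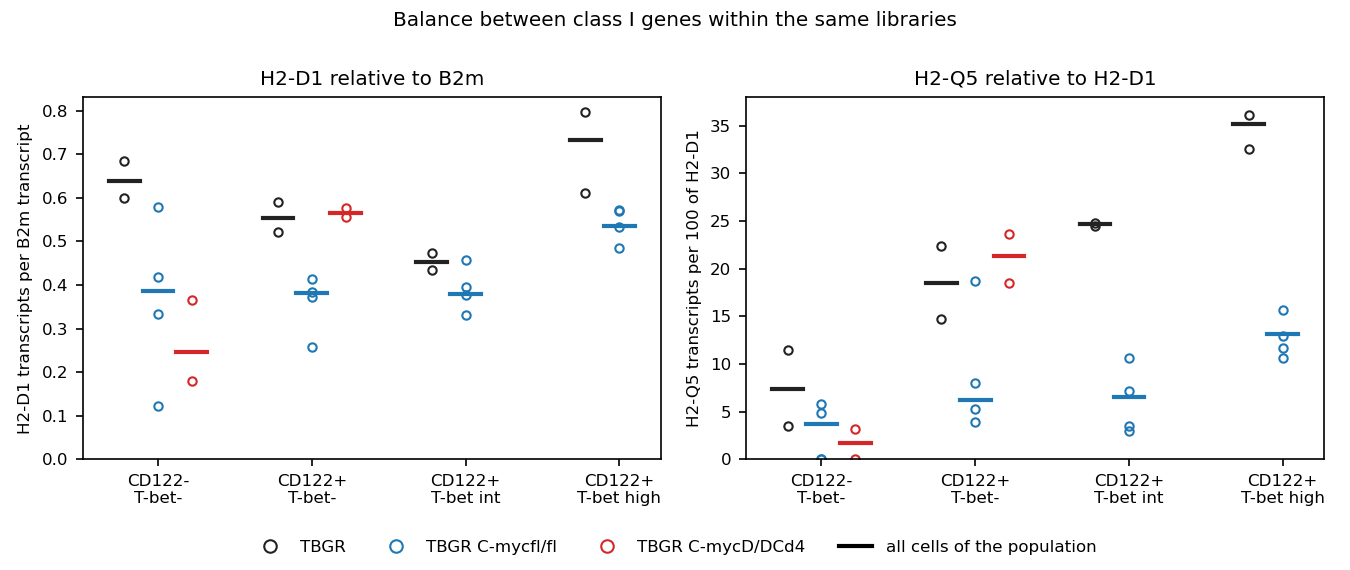
Transcripts of H2-D1 per transcript of B2m and of H2-Q5 per 100 transcripts of H2-D1, by mouse and population. Each point is 1 population in 1 library and each bar is the ratio of sums over the group. TBGR C-mycD/DCd4 CD122+T-bet- cells stand at 0.565 and 21.4, above the same population of TBGR C-mycfl/fl and near the 0.553 and 18.5 of the TBGR mouse.

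The differences were also seen in single cells. With every cell thinned at random to 2000 transcripts, at least 1 transcript of B2m was found in 74.1%, 93.0%, 100% and 100% of TBGR cells in sort order, and in 90.8%, 100%, 100% and 100% before thinning. For TBGR C-mycfl/fl the thinned shares were 50%, 74.6%, 86.2% and 90.2%. TBGR C-mycD/DCd4 cells went from 69.5% (exact binomial interval 60.8 to 77.4) to 94.2% (88.8 to 97.4). The thinned median per cell was 2, 4, 6 and 8 transcripts in TBGR populations and 1 and 4 in those of TBGR C-mycD/DCd4.

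H2-D1 was found in 54.0%, 80.1%, 88.9% and 99.3% of thinned TBGR cells and in 25%, 45.1%, 69.0% and 80.4% of thinned TBGR C-mycfl/fl cells. Cells of TBGR C-mycD/DCd4 with the gene made up 21.1% (14.4 to 29.2) of CD122-T-bet- and 78.1% (70.2 to 84.7) of CD122+T-bet- cells, and in 35.2% and 92.0% before thinning. In CD122+T-bet- cells of TBGR C-mycfl/fl the share was 45.1% (36.1 to 54.3). These intervals cover the sampling of cells from 1 mouse alone, not the spread between mice. H2-Q5 was found in 6.90%, 28.5%, 48.5% and 84.4% of thinned TBGR cells and in 28.5% of TBGR C-mycD/DCd4 CD122+T-bet- cells, against 5.74% of TBGR C-mycfl/fl. Barcodes that received no cell give the background, with 76 transcripts of B2m in 1920 such barcodes, 0.0396 per barcode, against 11.7 per kept cell.

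**Figure D4:**
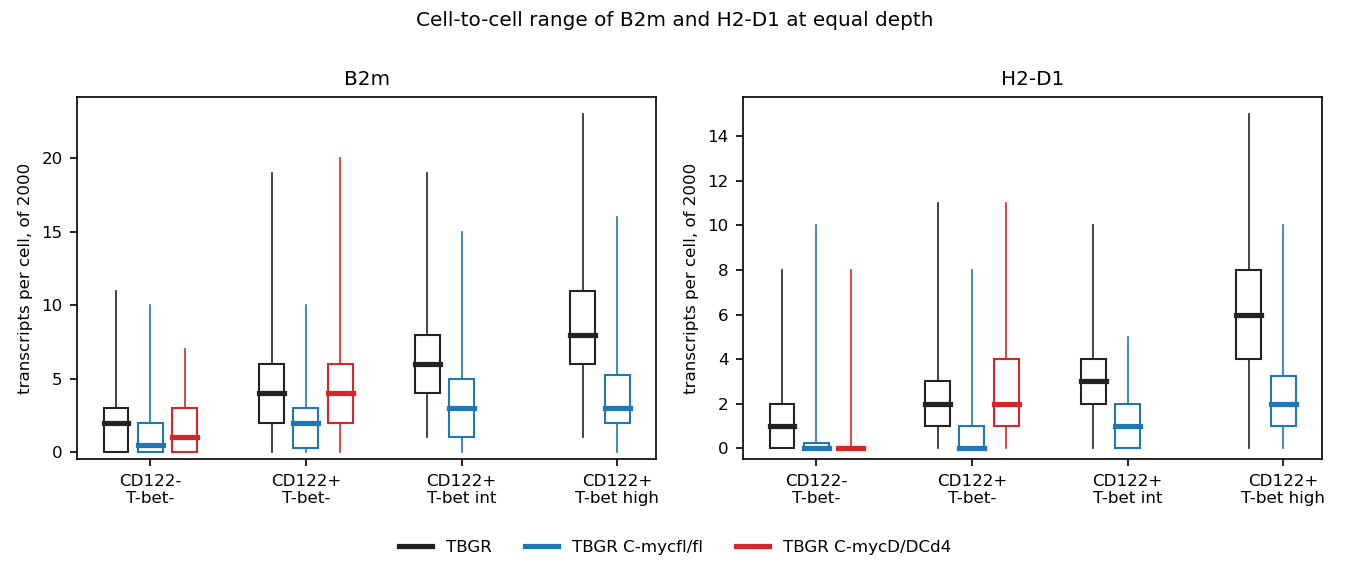
Transcripts of B2m and H2-D1 per cell after each cell was thinned to 2000 transcripts, by mouse and population. Boxes span the quartiles with the median as a line and whiskers run to the lowest and highest cell, and the B2m medians stand at 2, 4, 6 and 8 in the TBGR populations.

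Within a population and library, cells with more B2m tended to hold more H2-D1. Spearman's rho between both genes over thinned cells was above 0 in 28 of 28 population-by-library sets, with a median of 0.376 and a range from 0.00396 to 0.675. The median was 0.189 for B2m and Tapbp and 0.112 for B2m and Actb, a cytoskeletal gene of no class I function. Tapbp averaged at most 0.848 transcripts per thinned cell, and such low counts limit its rho. For B2m and Actb rho ran from -0.292 to 0.648 and was above 0 in 20 of 28 sets. These are descriptions over cells of the same library, which share handling and mouse.

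Genes of alike pattern were sought over the 10 groups among 1235 genes with at least 1000 transcripts. The 3 nearest to B2m by Pearson correlation of log2 level were Selplg, which encodes the P-selectin ligand PSGL-1 (0.993), Ifi203, an interferon-inducible gene (0.978), and Pik3cd, a catalytic subunit of PI3 kinase (0.970). The 3 nearest to H2-D1 were H2-Q5 (0.993), Gimap3, a GTPase gene of lymphocytes (0.982), and Lsp1, which encodes an actin-binding protein of leukocytes (0.971). B2m and H2-D1 stood at 0.969 to each other. Selplg stood at 185, 323, 441 and 647 CPM in TBGR populations and at 131 and 325 CPM in those of TBGR C-mycD/DCd4. The points share mice, libraries and total counts.

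Of 36 other genes of the class I pathway, 31 had a row, and 7 to 17 had enough transcripts in a comparison. Across the TBGR CD122 step 4 of 15 were higher and 1 lower. The higher ones were H2-Q6, a Q region heavy chain gene (log2 ratio 1.67), the chaperone gene Canx (1.17), Irf2 (0.76) and the immunoproteasome gene Psmb8 (0.62). From there to T-bet int 3 of 17 were higher, the trimming peptidase gene Erap1 (0.83), Psmb9 (0.76) and H2-Q6 (0.61), and Cd1d1 was lower (-0.76). From T-bet int to T-bet high 7 of 15 were higher and 1 lower, a median log2 ratio of 0.57 against -0.13 for all genes. Among them were Nlrc5, the class I transactivator (1.23), H2-Q6 (1.19), Irf1 (0.95), H2-T10 (0.87) and, as the lower one, Canx (-0.98). The spike-in shift of -0.75 at this last step applies to these ratios too. Over all genes the shares called higher at the 3 steps were 24.7%, 9.06% and 11.5%.

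In TBGR C-mycfl/fl 3 of 8 of this list were higher across the CD122 step, the immunoproteasome genes Psmb10 (1.01) and Psmb8 (0.92) and the proteasome activator gene Psme1 (0.76), and 0 of 10 were called from T-bet int to high, where 33.1% and 4.64% of all genes were higher. In TBGR C-mycD/DCd4 4 of 11 were higher across the CD122 step, among them Irf2 (2.01), Psmb10 (1.28) and Tapbpl, a relative of tapasin (0.69), against 23.2% of all genes. Against TBGR C-mycfl/fl, 1 of 7 was higher in CD122-T-bet- cells, Psmb8 (1.11), and 3 of 10 in CD122+T-bet- cells, among them Irf2 (1.14) and Tapbpl (0.95), against 26.4% and 23.4% of all genes. These shares of the list were near those of all genes or below them in several comparisons. Psmb8, Psmb9 and Psmb10 overlapped between the mice in CD122+T-bet- cells, at log2 ratios of 0.34, 0.08 and 0.19. The next 3 genes were chosen after their values were seen and held under the minimum of 100 transcripts. In CD122+T-bet- cells of TBGR C-mycD/DCd4 and TBGR C-mycfl/fl, H2-Q6 stood at 121 against 14.5 CPM, H2-T10 at 82.3 against 22.4 and Nlrc5 at 55.8 against 14.5 CPM. The libraries were apart in all 3, but without that minimum 2591 rather than 494 genes were called higher in this comparison. How many other genes of the list were apart is not given here. The ends of these 3 genes were not compared with other transcripts.

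A list of 18 interferon-stimulated genes did not follow B2m at the first TBGR step. There 0 of 8 were higher and 4 lower, against 24.7% and 5.50% of all genes, with a median log2 ratio of -0.63 against 0.28 for all genes. Then 3 of 9 were higher and 1 lower at the step to T-bet int, and 8 of 13 higher at the step to T-bet high, against 9.06% and 11.5% of all genes higher, with medians of 0.39 and 0.81. Scaling to spike-ins, with its shift of -0.75, applies to the last of these medians too. From T-bet int to high in TBGR C-mycfl/fl, 1 of 3 taken was higher, against 4.64% of all genes. The summed level of the list was 1219, 812, 1241 and 2222 CPM in sort order in TBGR cells, 494, 440, 684 and 933 CPM in TBGR C-mycfl/fl and 564 and 837 CPM in TBGR C-mycD/DCd4. In CD122+T-bet- cells of the C-myc mice, 2 genes of this list had enough transcripts and both were higher in TBGR C-mycD/DCd4, among them Gbp7 (1.02). Of 13 thymocyte maturation genes, 3 of 6 taken were higher in that comparison, namely Ccr9, Cd69 and S1pr1 at log2 ratios of 2.25, 1.90 and 0.82, against 23.4% of all genes higher and 11.9% lower. Across the CD122 steps this list was mixed. In the TBGR mouse 2 of 10 were higher and 5 lower, against 24.7% and 5.50% of all genes. In TBGR C-mycfl/fl 2 of 6 were higher and 3 lower, against 33.1% and 4.80%. In TBGR C-mycD/DCd4 3 of 7 were higher and 2 lower, against 23.2% and 16.0%.

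Markers of other cells the sort could hold moved in part with these genes. Of 8 T cell genes 7 had a row and none was at 0, with sums of 3616 to 7052 CPM. Among 6 taken, 3 were higher and 0 lower in TBGR C-mycD/DCd4 CD122+T-bet- cells than in TBGR C-mycfl/fl. The shares of all genes there were 23.4% and 11.9%. Across the CD122 step 5 of 7 were higher in TBGR C-mycD/DCd4, against 23.2% of all genes. In the TBGR mouse 0 of 7 were higher and 2 lower at this step, against 24.7% and 5.50%. In TBGR C-mycfl/fl 0 of 6 were called, where 33.1% of all genes were higher. The 8 double positive thymocyte genes summed to 367 to 756 CPM in CD122-T-bet- groups, where class I genes were lowest, and to 31.7 to 140.5 CPM in the others. The sum was 756 CPM in TBGR C-mycD/DCd4 CD122-T-bet- cells and 367 CPM in those of TBGR C-mycfl/fl. The part of such cells in the CD122 steps was not tested. The myeloid list, 6 of 7 genes, summed to 38.3 to 101 CPM in CD122-T-bet- and 194 to 596 CPM in CD122+ groups, with Itgax or Csf1r at 0 in every group. The 5 NKT cell genes summed to 81.5 to 497 CPM, 5 of 6 gamma delta T cell genes to 405 to 1365 CPM and the B cell list to 61.7 to 334 CPM. In CD122+T-bet- cells the gamma delta genes stood at 1091 CPM in TBGR C-mycD/DCd4 against 405 in TBGR C-mycfl/fl, with libraries apart. There the NKT cell genes stood at 166 against 360 CPM and the B cell genes at 334 against 92.4 CPM, with libraries overlapping. The part of such cells in that comparison was not tested. In all groups 5 of 6 thymic epithelial genes summed to 35.6 to 69.1 CPM, with Krt5 or Krt8 at 0 in every group.

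The class II genes, marks of antigen presenting cells, which also carry much class I, summed to 3.09 to 218 CPM. In TBGR C-mycD/DCd4 CD122+T-bet- cells they stood at 0 in one library and at 388 CPM in the other. Cells with at least 5 class II transcripts numbered 6 of 1413. Without these cells, an alternative chosen after seeing the data, the medians of the 8 comparisons were 0.29, 0.46, 0.85, 1.02, 0.56, 1.86, 0.13 and 1.5. Tap1 then passed the rule as lower across the TBGR CD122 step, at a log2 ratio of -0.61.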

How the data were processed

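Libraries were made by CEL-Seq2 from single sorted cells, 96 wells with a cell and 96 empty barcodes per library. Per the submitters' processing notes, bcl2fastq 2.17.1.14 and BWA 0.6.2-r126 were used. The authors aligned reads to GENCODE VM9 transcripts, merged isoforms and loci that overlap by more than 75%, kept unique sense hits and counted molecular identifiers of 6 bases. The deposited values are estimated counts of transcripts, corrected for identifier collisions, and were rounded here. Cells with under 2000 transcripts without mt- and ERCC- rows were left out, and no doublet caller was run on cells sorted singly into wells. Library totals of kept cells were 233454 to 775264 transcripts, which limits genes of few transcripts. Counts were summed by population and library, and 0.5 was added to each sum before log2 ratios (Python 3.11.15, NumPy 2.4.6, pandas 2.3.3, SciPy 1.17.1, Matplotlib 3.10.9). Counting intervals are exact at 95%. No test was run, and the scripts were tested on simulated data. Named genes were all members, up to 6 called genes of the other class I list per comparison and the 3 most alike in pattern. Some genes of the lists are not reported here by name. The members and lists were chosen with earlier results of these data known. Alternatives varied cell minimum, weighting, thinning, pseudocount, rounding, scaling, gene minimum and libraries.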

Additional observations from a re-analysis of the deposited data

Results flagged for a closer look

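In CD122+T-bet- cells of TBGR C-mycfl/fl, Tapbp stood at 53.0 CPM in library 4 and at 176 to 189 CPM in the other libraries, a gap of 0.904 of the whole range. This was 1 of 24 gene-by-population sets of 4 libraries checked, and chance alone flags about 1 set in 20. The library held 22 kept cells.

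Between the TBGR and TBGR C-mycD/DCd4 mice, the log2 ratio of the CD122 step was of opposite sign, with all libraries of each mouse apart, for H2-T23 (-0.17 against 1.06, a difference of 1.22; 0.21 in the TBGR mouse when scaled to spike-ins) and for Tap1 (-0.55 against 0.89, a difference of 1.44). These differences were not tested, and age, genotype and library set cannot be told apart.

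Barcodes without a sorted cell held 179 transcripts of the 6 genes in all, over 1920 barcodes.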

How the results depend on the processing

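Of 91 median log2 ratios of the genes under 11 alternatives other than leaving out a library, 18 moved by more than the spread between libraries or turned, and 1 of them turned. Thinning gave 0.37 and 1.02 for the CD122 and T-bet high steps of TBGR, 0.70 and 0.38 for those of TBGR C-mycfl/fl and 1.51 for the CD122 step of TBGR C-mycD/DCd4. Means of cell shares gave 0.31 for the TBGR T-bet int step, and for the last 2 steps just named 0.48 and 1.66, where no gene minimum gave 0.45 and 1.47. Leaving out ribosomal protein genes gave 0.36 for the TBGR CD122 step. With the median over all genes set to 0, that step was 0.032, the CD122 and T-bet high steps of TBGR C-mycfl/fl 0.47 and 0.73, and the CD122-T-bet- genotype comparison reversed to -0.32. Scaled to spike-ins, which could be computed in the TBGR mouse alone, its 3 comparisons stood at 0.68, 0.61 and 0.10, and Tap1 at T-bet high reversed to -0.16. Leaving out each library gave, in the report's order of comparisons, 0.26 to 0.36, 0.25 to 0.44, 0.73 to 0.96, 0.85 to 1.14, 0.54 to 0.56, 1.78 to 1.97, -0.023 to 0.28 and 1.33 to 1.72. The one reversal, -0.023, came without TBGR C-mycfl/fl CD122-T-bet- library 4. The cause of these changes was not tested.

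Counts of called genes moved over 1.5 times in 41 settings. Genes higher at the CD122 steps numbered 496 rather than 1004 (TBGR) and 168 rather than 587 (TBGR C-mycfl/fl) with that median set to 0. On that scale the calls of B2m (0.49) and H2-D1 (0.47) in the latter and of H2-D1 (0.38) in the former ended. Scaled to spike-ins, T-bet high had 109 genes higher rather than 407 and 2380 lower rather than 786, and of the members H2-Q5 alone stayed called. Without TBGR C-mycfl/fl CD122+T-bet- library 4, 554 rather than 251 genes were lower in TBGR C-mycD/DCd4. No paired analysis was possible because no result came from a test. Where both populations shared libraries, in TBGR C-mycfl/fl, ratios were read within each library. Adding joined gene groups gave no value, since none held a member. Depth limits Tap1 and H2-Q5 in the C-myc mice, where some sums held under 100 transcripts.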
